A study of Mus musculus with 10 samples.

Results

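The late dose effect of interleukin-3 (IL-3) on transcript levels was measured in 32Dcl3 cells, a mouse myeloblast line that needs this cytokine to grow, by setting RNA taken after 4 h in high IL-3 beside RNA taken after 4 h in low IL-3. The comparison rests on 4 of the 10 arrays of the series, picked by their titles: 2 labelled 4 h with high IL-3 and 2 labelled 4 h with low IL-3, paired as experiment 1 and experiment 2. Of the 22690 probe sets on the Affymetrix mouse 430A 2.0 array, the 11856 with a mean intensity of at least 50 over the 10 arrays were compared. In each experiment a single culture was washed free of IL-3, given actinomycin D at 10 µg/ml to stop transcription, and split 20 min later into portions that received IL-3 at 1 ng/ml (high) or 0.01 ng/ml (low). The remaining arrays hold the same portions after 2 h and a 0 h sample, 2 of each kind. The low group therefore still contained some cytokine, and every cell of either 4 h group had been exposed to actinomycin D. For the 0 h arrays, which serve below only as a reference level, the titles place collection after actinomycin D and another label places it just before. The study counts 0 h from the addition of cytokine. The replicates are 2 cultures of 1 cell line. The error (SE) given for each difference comes from a spread estimated over all 10 arrays, with the experiment taken out. It does not measure how far the 2 experiments differ at 4 h alone.

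IL-3 sustains the growth and survival of myeloid progenitors through a receptor of an alpha chain and a common beta chain, which signals through JAK2 and STAT5, PI 3-kinase and the MEK/ERK kinases. How long a messenger RNA lasts depends to a large degree on elements of its 3′-untranslated region, among them AU-rich elements (AREs), and on the proteins that bind there: ZFP36 family members recruit deadenylases to such transcripts, whereas HuR protects them. In a chase after actinomycin D, which blocks new synthesis, the level of a transcript is what has been left of the pool present at the start.

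The 4 arrays at 4 h had median intensities of 53.2 and 48.9 in high IL-3 and 52.3 and 48.8 in low IL-3 (experiments 1 and 2), and an intensity of 50 was reached by 11280 to 11494 of the probe sets on each. Correlations were taken over all 22690 probe sets, tested or not, on the log2(intensity + 16) scale. The high and low arrays of an experiment correlated at 0.994 and 0.991. The 2 arrays of a group were less close, at 0.975 in high and 0.983 in low IL-3. Of the markers of myeloid progenitors and granulocytes, 17 of 22 genes on the array had a mean intensity of at least 50, and their summed intensity was 19287 and 11495 in high and 19382 and 12425 in low IL-3. Myeloperoxidase (Mpo), a granule enzyme of myeloblasts, had intensities of 3759 and 687 in high and 4036 and 824 in low IL-3. It thus differed between the experiments and little with the dose. On the same list Ctsg, Prtn3 and Ms4a3 were bright (mean intensities 3754, 2171 and 937). Neutrophil elastase (Elane, mean intensity 19.6) and Kit (highest mean 7.97 of its 2 probe sets) were among the dimmest markers. Markers of other lineages were patchy. A mean of 50 was reached by 6 of 16 mast cell and basophil genes and 6 of 15 macrophage genes. It was also reached by 5 of 13 erythroid and megakaryocyte genes and 2 of 14 lymphoid genes. Among mast cell and basophil genes Ms4a2 (16.9) was low, while Cpa3 (1243), Mcpt8 (220) and Fcer1a (130) were higher. Klf1 (9.42) was low and Pf4 (881), on the same list, was bright. The macrophage list likewise held C1qa (5.33), which was low, and Adgre1, which was bright (mean 2969). Cd3e (1.43) and Cd79a (15.3) were low. Of the 42 probe sets tested from the 5 marker lists, Il4 alone passed the test at 4 h. Because RNA came from whole cultures, fewer cells of a type and less RNA per cell cannot be told apart.

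Of the few probe sets that passed the test after 4 h, nearly all were higher in high IL-3, while over all probe sets tested about as many lay on either side. In the limma fit described with the processing, 46 probe sets (0.388% of those tested) were higher in high IL-3 with an adjusted p under 0.05, and 2 (0.0169%) were lower. The 46 name 39 genes, and 2 of them name no single gene. Their median log2 difference was 0.76, with a range of 0.33 to 1.88, 10 of them differed by at least 1 and 12 by under 0.5. All 46 were higher in high IL-3 in both experiments, against 26.2% of all probe sets tested, and in 44 of them both high IL-3 arrays lay above both low IL-3 arrays, against 9.43% of all. Both lower probe sets were lower in both experiments (27.3% of all), and 1 of them had no overlap of the 4 arrays (7.0% of all). The calls were made on the difference between these same 4 arrays. The counts of shared direction and of no overlap therefore follow largely from the selection and are no further evidence. At an unadjusted p under 0.05, 639 probe sets (5.39%) were higher and 228 (1.92%) lower.

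The calls depended on the number of arrays and on the pairing. Without the experiment as a term in the fit no probe set passed, and 125 had an unadjusted p under 0.05. With 1 array left out at a time, 12 probe sets passed as higher when the array left out was high IL-3 of experiment 1, 8 when it was high IL-3 of experiment 2, 3 when it was low IL-3 of experiment 1 and 14 when it was low IL-3 of experiment 2. Of the 46, 2 passed in all 4 of these fits, 13 in 1 to 3 of them and 31 in none. All 46 stayed higher in high IL-3 in each of them. Across all 11856 probe sets the difference in experiment 1 and that in experiment 2 correlated at 0.17, a description over probe sets that share arrays and are no replicates. Size alone did not decide a call. The lowest difference of all, -3.34 in a probe set that names no single gene, did not pass. On the higher side a probe set for Xpr1, a phosphate exporter, singled out here after its values were seen, differed by 1.79 on average, with 0.01 in experiment 1 and 3.57 in experiment 2, and did not pass (SE 0.65, adjusted p = 0.43).

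**Figure D1:**
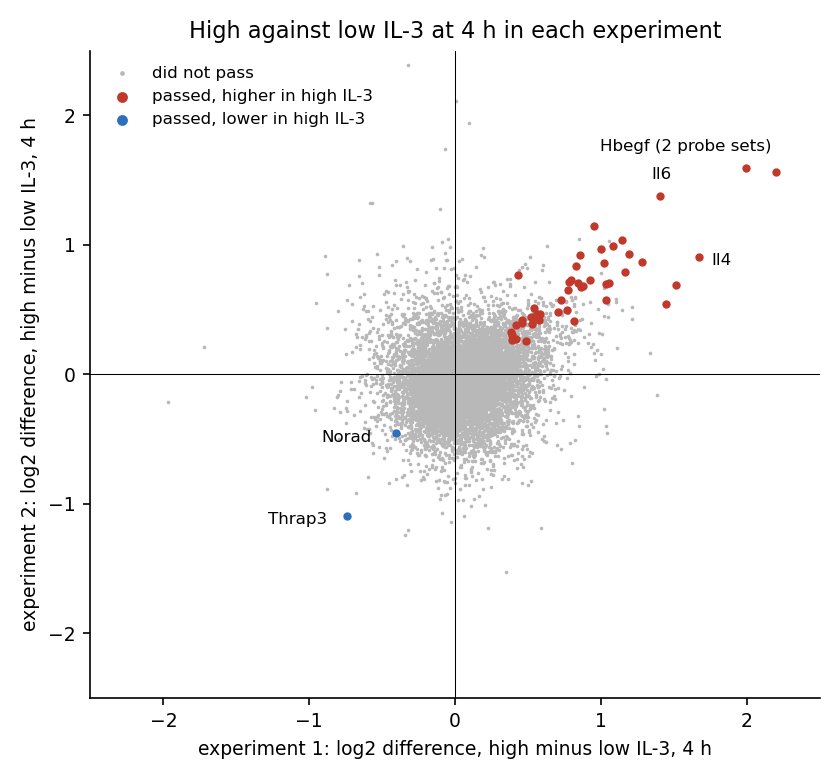
Log2 difference between high and low IL-3 at 4 h of each probe set in experiment 1 (horizontal axis) and experiment 2 (vertical axis), on the log2(intensity + 16) scale. Red points are the 46 probe sets that passed as higher, blue points the 2 that passed as lower and grey points those that did not pass; 4 probe sets lie outside the axes. The red points occupy the upper right corner, led by both probe sets of Hbegf at 2.00 and 2.20 in experiment 1 and 1.60 and 1.56 in experiment 2, and the grey cloud shows little shared direction.

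The 3 highest differences among called genes were those of ligand transcripts, Hbegf, Il6 and Il4. Hbegf encodes heparin-binding EGF-like growth factor, a membrane-anchored ligand of the EGF receptor. Its probe set 1418350_at had intensities of 886 and 764 in high IL-3 in experiments 1 and 2, and 210.2 and 242 in low IL-3. The 2 high values were several times both low values, with no overlap. The log2 difference was 1.80 (SE 0.15, adjusted p = 5.37e-05), a ratio of 3.47 on the log2(intensity + 16) scale. The second probe set of the gene, 1418349_at, read 192 and 158 in high and 29.2 and 43.1 in low IL-3, and differed by 1.88 (SE 0.20, adjusted p = 0.000365). Measured against the 0 h arrays, 80.4% ± 20.4 (SD, n = 2) of the first Hbegf signal was left with high IL-3 but 21.7% ± 1.12 with low IL-3. Hbegf 1418350_at was 1 of the 2 probe sets that passed whichever of the 4 arrays was left out.

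The other such probe set was that of Il6, the ARE-containing transcript of interleukin-6. Its intensities were 350.2 and 530.0 in high and 122 and 194 in low IL-3, again without overlap, although experiment 2 gave the higher value at both doses. The log2 difference was 1.39 (SE 0.14, adjusted p = 0.000259) and was nearly the same in both experiments (1.40 and 1.38). In high IL-3 48.9% ± 6.24 of the 0 h signal was left, and in low IL-3 17.5% ± 2.82 (SD, n = 2). Il4, which encodes the interleukin that mast cells and type 2 helper T cells secrete, read 233 and 201 in high and 62.0 and 99.4 in low IL-3. Both high values lay above both low values, and the log2 difference was larger in experiment 1 (1.67) than in experiment 2 (0.91; mean 1.29, SE 0.19, adjusted p = 0.00752). Of the 46, Il4 alone stood above its 0 h level in high IL-3 in both experiments, at 118% ± 8.05 (SD, n = 2), against 44.1% ± 15.9 in low IL-3. Beside Il4, the summed intensity of the 16 mast cell and basophil markers, which include it, was 1986 and 3024 in high and 1753 and 3334 in low IL-3, higher in experiment 1 and lower in experiment 2; the part of such cells in the Il4 difference was not tested.

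Among 16 probe sets of 12 cytokine, chemokine and growth factor ligands, the 4 just described were the only ones to pass. Of all probe sets tested, 0.388% passed as higher. In both experiments 5 (31.2%) were higher and 1 (6.25%) was lower, against 26.2% and 27.3% of all. The median difference was 0.11 against -0.01 over all probe sets tested. Tgfb1, the transcript of transforming growth factor beta 1, differed by 0.22 (adjusted p = 0.61), and Vegfa, an angiogenic ligand whose transcript carries AREs, by -0.20 (adjusted p = 0.892). The chemokine transcript Ccl9 was bright in all 4 arrays, from 3754 to 3988, with a difference of -0.03 (adjusted p = 0.968). Cklf, chemokine-like factor, was not on that list. Of its 6 tested probe sets 3 passed, at 0.87, 0.77 and 0.75, 2 others were at 0.84 and 0.83 without passing (adjusted p = 0.0707 and 0.117), and 1 was at -0.11 (adjusted p = 0.958). Probe sets with names ending in x_at or s_at can bind related transcripts, and probe sets of 1 gene share its RNA, so that those of Cklf are no replicates of each other.

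**Figure D2:**
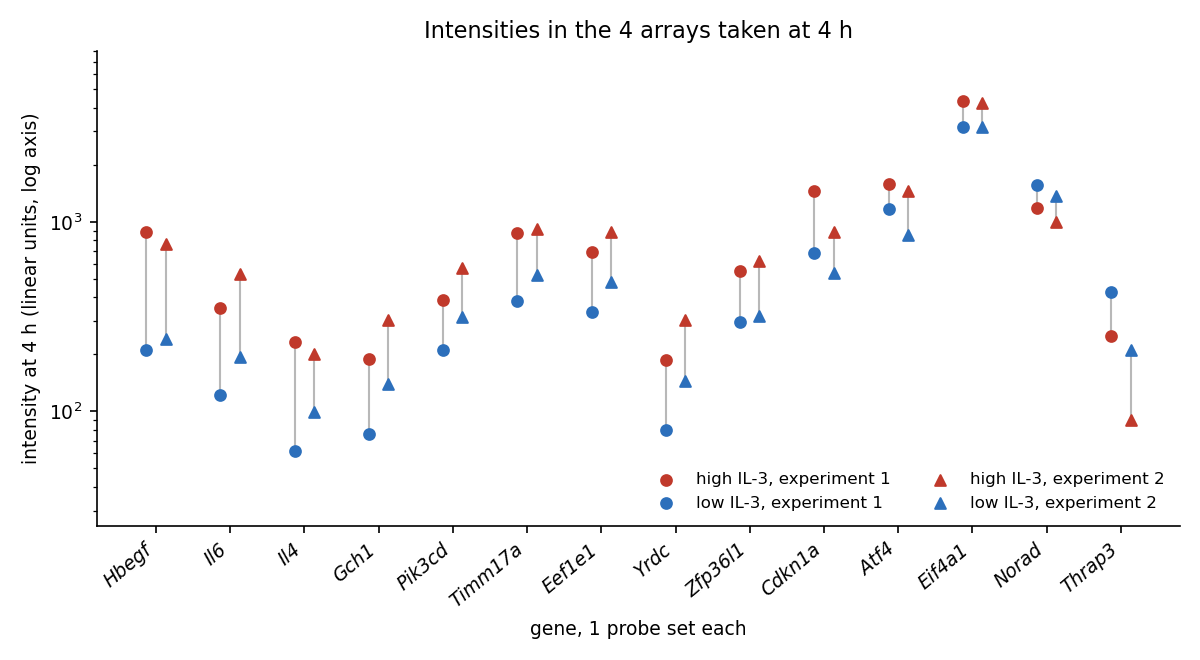
Intensity in each of the 4 arrays at 4 h for 1 probe set of each of 14 genes that passed, on a log axis. Red symbols are high IL-3, blue symbols low IL-3, circles experiment 1 and triangles experiment 2, and a grey line joins the arrays of an experiment. In the 12 genes from Hbegf to Eif4a1 each red symbol lies above the blue symbol it is joined to, and in Norad and Thrap3 it lies below.

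Single transcripts of signalling and survival proteins passed. Of all probe sets tested, 0.388% passed as higher, and 26.2% were higher and 27.3% lower in both experiments. Pik3cd encodes the p110 delta catalytic subunit of PI 3-kinase, the form that leukocytes use. Its probe set 1453281_at read 389 and 574 in high and 212 and 315 in low IL-3, where the low value of experiment 2 stayed below the high value of experiment 1. The difference was 0.83 (SE 0.14, adjusted p = 0.0245), and was 0.81 and 0.39 in the gene's other 2 probe sets, which did not pass (adjusted p = 0.109 and 0.689). It was the only call among 30 probe sets of the PI 3-kinase pathway. Of these, 11 (36.7%) were higher and 7 (23.3%) lower in both experiments (median 0.04). Inpp5d, a phosphatase that removes the lipid product of PI 3-kinase, was at 0.30 and Foxo3, a transcription factor that the pathway restrains, at -0.39, and neither passed (adjusted p = 0.678 and 0.75).

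Xiap, an inhibitor of caspases, was the only call among 48 probe sets of apoptosis regulators. The probe set 1450232_at read 189 and 119 in high and 89.5 and 45.0 in low IL-3, a difference of 1.05 (SE 0.19, adjusted p = 0.03). The other 2 Xiap probe sets were near 0, at -0.07 and 0.02, so the call rests on 1 of 3. Among the rest of the list, Casp8, an initiator caspase, was at 0.40 (adjusted p = 0.305) and Mcl1, an antiapoptotic member of the Bcl2 family, at -0.39 (adjusted p = 0.682), and 14 probe sets were higher and 12 lower in both experiments, with a median of -0.0014. Among 37 probe sets on the list of JAK, STAT, SOCS and PIM kinase genes none passed. At an unadjusted p under 0.05 in the limma fit, 5 were higher and 0 lower, against 5.39% and 1.92% of all probe sets tested. Pim2, a survival kinase, was at 0.32 (adjusted p = 0.52) and Jak1, a receptor-bound kinase, at -0.28 (adjusted p = 0.689), while Pias3, an inhibitor of STAT3, moved in opposite directions in the experiments (-0.32 and 2.39). Nor did any of 17 probe sets of MEK/ERK feedback regulators (1 higher and 1 lower at an unadjusted p under 0.05), or of 25 probe sets of immediate early transcripts, where the counts at that level were 1 and 1. Spry2, a feedback inhibitor of receptor signalling, was at -0.51 (adjusted p = 0.59), and Jund, an AP-1 subunit, at 0.36 (adjusted p = 0.732).

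Gch1 encodes GTP cyclohydrolase 1, the enzyme that starts tetrahydrobiopterin synthesis. It read 188 and 303 in high and 76.5 and 139 in low IL-3, so that at each dose experiment 2 was the higher, and within each experiment high IL-3 exceeded low IL-3. The difference was 1.09 (SE 0.15, adjusted p = 0.00512), and the second probe set of the gene was at 0.61 (adjusted p = 0.297). Against 0 h, 62.8% ± 2.82 was left in high and 27.2% ± 1.15 in low IL-3 (SD, n = 2).

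RNA-binding proteins supplied calls in both directions. Zfp36l1, an ARE-binding protein that speeds decay of its targets, read 548 and 621 in high and 296 and 321 in low IL-3. The groups did not overlap, and the difference was 0.89 (SE 0.15, adjusted p = 0.0291). Its other probe set was as far apart, at 0.95, with an adjusted p of 0.089. Zfp36l2, its closest relative, was at 0.35 at 4 h (adjusted p = 0.705), with 382 and 323 in high and 286 and 260.2 in low IL-3. Over 38 probe sets of 16 ARE-binding protein genes, Zfp36l1 was the only call, against 0.388% of all probe sets tested that passed as higher. In both experiments 9 (23.7%) were higher and 17 (44.7%) lower, against 26.2% and 27.3% of all, and the median was -0.05. Hnrnpab, an RNA-binding protein of the hnRNP family, was at 0.25 (adjusted p = 0.144), Hnrnpa1 at -0.44 (adjusted p = 0.349) and Hnrnpdl at -0.44 (adjusted p = 0.403). Among 65 probe sets of the mRNA decay machinery none passed. At an unadjusted p under 0.05 in the limma fit, 3 were higher and 1 lower, against 5.39% and 1.92% of all. The nearest was Mphosph6, an exosome cofactor, with 310.1 and 210.0 in high and 131 and 144 in low IL-3, a difference of 0.82 and an adjusted p of 0.0797.

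Snrnp27, Prkrip1 and Celf4 passed and were on none of the lists. Snrnp27, a protein of the U4/U6.U5 tri-snRNP, passed in both of its probe sets, at 0.65 and 0.53 (adjusted p = 0.00732 and 0.0424). The first read 1605 and 1235 in high and 962 and 826 in low IL-3, without overlap. Prkrip1, which binds double-stranded RNA and the spliceosome, was at 0.99 (adjusted p = 0.0491) but varied between experiments, at 1.45 and 0.54. Celf4, a regulator of splicing and translation, passed in 1 of 3 probe sets at 1.06 (adjusted p = 0.0423). On the list of splicing and RNA processing genes (158 probe sets) nothing passed as higher and Thrap3 passed as lower.

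Thrap3 and the noncoding RNA Norad were the only 2 lower calls. Thrap3, an SR-like protein that takes part in splicing and mRNA decay, read 249.9 and 90.2 in high and 428 and 211 in low IL-3. The high value of experiment 1 exceeded the low value of experiment 2, so the groups overlapped, and only within an experiment was the direction clear. The difference was -0.92 (SE 0.16, adjusted p = 0.03). Its other 2 probe sets were at 0.08 and 0.04 (adjusted p = 0.945 and 0.98), so that the call rests on 1 of 3. Norad, an abundant long RNA that binds Pumilio proteins, read 1186 and 999.7 in high and 1573 and 1378 in low IL-3, with no overlap, and differed by -0.43 (SE 0.09, adjusted p = 0.0485). Its other probe set was at -0.24 with opposite signs in the 2 experiments (adjusted p = 0.916). Against 0 h, 43.1% ± 4.02 of the Norad signal was left with high IL-3 against 58.3% ± 3.85 with low IL-3. For Thrap3 the shares were 54.8% ± 15.1 and 108% ± 6.51 (SD, n = 2). The next lowest p among lower probe sets was that of Polr1c, a subunit shared by RNA polymerases I and III, at -0.79 with an adjusted p of 0.0707, followed by 1439421_x_at and 1448504_a_at, which name no single gene, at -0.47 and -0.43 (adjusted p = 0.0969 and 0.119). Both lower calls were lost when any 1 of the 4 arrays was left out.

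Cell cycle transcripts were led by Cdkn1a, which encodes the CDK inhibitor p21. Probe set 1424638_at read 1451 and 885 in high and 689 and 537 in low IL-3, without overlap, and differed by 0.88 (SE 0.14, adjusted p = 0.0129). From 0 h, 40.8% ± 10.7 was left in high and 21.6% ± 1.98 in low IL-3 (SD, n = 2). The second Cdkn1a probe set was higher in both experiments, at 0.95 and 0.17, but did not pass (adjusted p = 0.527). Among 71 probe sets of CDK inhibitors and G1/S genes Cdkn1a was the only call, against 0.388% of all probe sets tested that passed as higher. In both experiments 31 (43.7%) were higher and 21 (29.6%) lower, against 26.2% and 27.3% of all. Rrm2, the small subunit of ribonucleotide reductase, came nearest of all probe sets that did not pass, at 0.43 (adjusted p = 0.0532), Cdkn2d, an INK4 inhibitor, was at 0.60 (adjusted p = 0.23), and Ccna2, cyclin A2, was at -0.40 (adjusted p = 0.171).

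More probe sets of G2/M and mitosis genes lay on the higher than on the lower side. Of 57 probe sets, 36 (63.2%) were higher and 6 (10.5%) lower in both experiments, against 26.2% and 27.3% of all probe sets, and the median difference was 0.13 against -0.01 (0.12 to 0.16 under the other scalings and pseudocounts). At an unadjusted p under 0.05, 14 were higher and 0 lower, and 1 passed after adjustment. That one was Cdc20, an activator of the anaphase-promoting complex, which read 1319 and 919.8 in high and 886 and 662 in low IL-3 and differed by 0.52 (adjusted p = 0.0471), with its other 2 probe sets at 0.28 and 0.52 (adjusted p = 0.197 and 0.303). Cdk1, the mitotic kinase, was at 0.29 (adjusted p = 0.17), Bub3, a spindle checkpoint protein, at 0.47 (adjusted p = 0.21) and Tpx2, a spindle assembly factor, at 0.36 (adjusted p = 0.327), while Ttk, a checkpoint kinase, was at -0.20 (adjusted p = 0.888). Pbk, a mitotic kinase, and Spc25, a kinetochore subunit, were on no list and passed at 0.50 and 0.63 (adjusted p = 0.03 and 0.0491). In both of them the low value of experiment 1 exceeded the high value of experiment 2. Ube2s, the ubiquitin-conjugating enzyme that works with the anaphase-promoting complex, missed at 0.54 (adjusted p = 0.0629). Of 27 probe sets of p53 targets and Gadd45 genes, 16 (59.3%) were higher and 2 (7.41%) lower in both experiments, with a median of 0.06 and Cdkn1a as the only call. Gadd45a, a stress-induced growth arrest gene, was at 0.85 (adjusted p = 0.21), and Mdm2, the ubiquitin ligase of p53, at 0.34 (adjusted p = 0.394).

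Several transcripts of protein synthesis passed, at most 2 probe sets on any 1 list. Among all probe sets tested, 0.388% passed as higher, and 26.2% were higher and 27.3% lower in both experiments. Yrdc and Eef1e1 were the calls among 72 probe sets of aminoacyl-tRNA synthetase and tRNA modification genes. There 21 (29.2%) were higher and 24 (33.3%) lower in both experiments. Yrdc, an enzyme of tRNA modification, read 186 and 303 in high and 79.5 and 144 in low IL-3, and differed by 1.04 (SE 0.18, adjusted p = 0.03). Eef1e1, a scaffold of the multisynthetase complex, read 695 and 889 in high and 335 and 483 in low IL-3, a difference of 0.94 (SE 0.15, adjusted p = 0.0153). Neither gene's groups overlapped. Eif4a1, the helicase of the cap-binding complex, differed far less but evenly: it read 4352 and 4239 in high and 3168 and 3166 in low IL-3. Its difference of 0.44 had an SE of 0.06 and an adjusted p of 0.002, whereas its other 2 probe sets were at 0.07 and 0.05. Eif4a1 was the only call among 87 probe sets of translation initiation factors. Of these, 27 (31.0%) were higher and 21 (24.1%) lower in both experiments.

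Rpf2, an assembly factor that brings the 5S ribonucleoprotein into the large ribosomal subunit, was the only call among 114 probe sets of ribosome biogenesis genes, with 573 and 500.5 in high and 294 and 296 in low IL-3 and a difference of 0.83 (SE 0.15, adjusted p = 0.03). Its other probe sets were at 0.51 and 0.11 and did not pass. Of the 114, 49 (43.0%) were higher and 26 (22.8%) lower in both experiments, against 26.2% and 27.3% of all probe sets tested. Their median was 0.06. Cytoplasmic ribosomal protein genes (81 probe sets) held no call and 0 probe sets with an unadjusted p under 0.05. Their differences ran from -0.26 to 0.19, with a median of -0.02 in the deposited scaling that turned to 0.01 when each array was scaled to Gapdh.

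On the 2 mitochondrial lists, protein import held 2 calls among 60 probe sets and the respiratory chain none among 155. The share of all probe sets tested that passed as higher was 0.388%. Timm17a, a subunit of the inner membrane translocase, read 870.5 and 921 in high and 380.3 and 527 in low IL-3, with no overlap. It differed by 0.97 (SE 0.12, adjusted p = 0.002), and 64.7% ± 0.0607 of its 0 h signal was left in high against 32.7% ± 6.17 (SD, n = 2) in low IL-3. Vdac2, a porin of the outer membrane, was the smallest difference to pass, at 0.33 (SE 0.06, adjusted p = 0.0373). These 2 were the calls among 60 probe sets of mitochondrial protein import. Of these 60, 20 (33.3%) were higher and 16 (26.7%) lower in both experiments, near the 26.2% and 27.3% of all probe sets tested. Outside the lists, and named after their values were seen, Smim26 passed at 0.77, Mmadhc, which guides vitamin B12 to its enzymes, at 0.59, and Prelid3b, a lipid transfer protein, at 0.46 (adjusted p = 0.0486, 0.0425 and 0.0491). The respiratory chain and ATP synthase list held more lower than higher probe sets: of 155 probe sets none passed, 22 (14.2%) were higher and 82 (52.9%) lower in both experiments, 1 was higher and 8 lower at an unadjusted p under 0.05, and the median was -0.07 (-0.08 to -0.03 under the other scalings and pseudocounts). Atp5e, a small subunit of ATP synthase, was at -0.23 (adjusted p = 0.458), and Ndufa3, a complex I subunit, at -0.20 (adjusted p = 0.515).

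Psmd12 and Atf4 were the single calls of their lists, where 0.388% of all probe sets tested passed as higher. Psmd12, a lid subunit of the proteasome, was the only call among 70 proteasome probe sets, at 0.52 (adjusted p = 0.0373), and Cct6a, a subunit of the chaperonin that folds actin and tubulin, passed in both probe sets at 0.37 and 0.36 (adjusted p = 0.0373 for each). Atf4, the transcription factor of the amino acid stress response, read 1577 and 1456 in high and 1164 and 849 in low IL-3, and differed by 0.60 (adjusted p = 0.0491), close to the 0.57 of its other probe set, which missed (adjusted p = 0.065). It was the only call of 36 probe sets on the ATF4 list. There 16 (44.4%) were higher and 8 (22.2%) lower in both experiments, against 26.2% and 27.3% of all. Trib3, a target of the factor, was at -0.27 (adjusted p = 0.855). Egln3, the prolyl hydroxylase that marks HIF for destruction, passed at 0.61, Osbpl2, an oxysterol-binding protein, at 0.80 and Atp2a2, the calcium pump of the endoplasmic reticulum, at 0.48 (adjusted p = 0.0373, 0.03 and 0.039). The other 2 probe sets of Atp2a2 were at 0.13 and 0.03, so that its call rests on 1 of 3.

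Cbwd1, Atg4d, Tgds, Fam3c and Ncdn differed by 1.07, 0.99, 0.76, 0.71 and 0.78, with adjusted p-values from 0.03 to 0.0498. Cbwd1 read 99.2 and 46.6 in high and 31.4 and 18.4 in low IL-3, and Atg4d, a protease of autophagy, 73.3 and 133 against 28.5 and 60.2. In each of the 2 genes the groups did not overlap, but the low IL-3 values fell to intensities where the added 16 takes up a large share of the value. The bright transcripts Ywhag, a 14-3-3 protein, Cd48, a surface receptor of leukocytes, Chic2 and Tmem33 differed by 0.35, 0.40, 0.49 and 0.43, with adjusted p-values from 0.03 to 0.0486. The call of Tmem33 rests on 1 of 4 probe sets, the others being at 0.19, -0.12 and 0.04. The 2 probe sets without a single gene, 1421821_at and 1452662_a_at, were at 1.10 and 0.35. The first had fallen furthest of the 46, to 6.34% ± 0.773 of its 0 h signal with low IL-3 against 15.4% ± 4.63 with high IL-3 (SD, n = 2). Of 32 probe sets of cholesterol synthesis genes none passed. In both experiments 18 (56.2%) were higher and 3 (9.38%) lower (median 0.08), against 26.2% and 27.3% of all probe sets tested. At an unadjusted p under 0.05 in the limma fit, 6 were higher and 0 lower, against 5.39% and 1.92% of all. Fdft1, squalene synthase, was the nearest at 0.63 (adjusted p = 0.128), while Sqle, the next enzyme of the pathway, was at -0.18 (adjusted p = 0.858).

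The transcripts that the study examined by Northern blot were chosen, apart from Cdkn1a, on these arrays, so their direction here is not independent evidence. Of 16 probe sets of these 8 genes 4 passed, against 0.388% of all probe sets tested that passed as higher. In both experiments 13 (81.2%) were higher and 1 (6.25%) lower, against 26.2% and 27.3% of all, and the median difference was 0.53. The calls were those of Il6, Cdkn1a, Pik3cd and Zfp36l1 given above. Pim1, a survival kinase induced by STAT5, had 693 and 425 in high and 450.0 and 318 in low IL-3 with its probe set 1435458_at, a difference of 0.50 (adjusted p = 0.309), and its other probe set was at 0.45 (adjusted p = 0.59). Cited2, a coactivator partner of CBP and p300, read 543 and 362 in high and 205 and 322 in low IL-3 with 1421267_a_at, where the experiments differed in size (1.34 and 0.16), and did not pass (0.75, adjusted p = 0.303). Myb, the transcription factor of immature haematopoietic cells, was near 0 in its 3 probe sets, at 0.11, 0.17 and -0.03 (adjusted p from 0.922 to 0.98).

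No control or cytokine receptor transcript passed. The 3 Gapdh control probe sets read between 7207 and 9244 in the 4 arrays, and differed by -0.04, -0.04 and -0.01 (adjusted p = 0.928, 0.945 and 0.98). Il3ra, the alpha chain of the IL-3 receptor, was at -0.21, and Csf2rb and Csf2rb2, its beta chains, were at 0.15 and 0.11 (adjusted p = 0.848, 0.932 and 0.936). Among all 19 probe sets of cytokine receptors none passed. In both experiments 1 (5.26%) was higher and 9 (47.4%) were lower, against 26.2% and 27.3% of all probe sets tested. At an unadjusted p under 0.05 in the limma fit, 0 were higher and 2 lower, against 5.39% and 1.92% of all. Csf3r, the G-CSF receptor, was at -0.31 (adjusted p = 0.613). Among 45 probe sets of glycolysis and control genes none passed. In both experiments 7 (15.6%) were higher and 21 (46.7%) lower, and the counts at an unadjusted p under 0.05 were 0 and 1. Within this list a probe set of Actb, beta-actin, read 58.1 and 383 in high and 113 and 549.6 in low IL-3. Its difference was -0.65 (adjusted p = 0.489), and Ywhaz was at -0.31 in one probe set and 0.16 in another (adjusted p = 0.689 and 0.804).

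**Figure D3:**
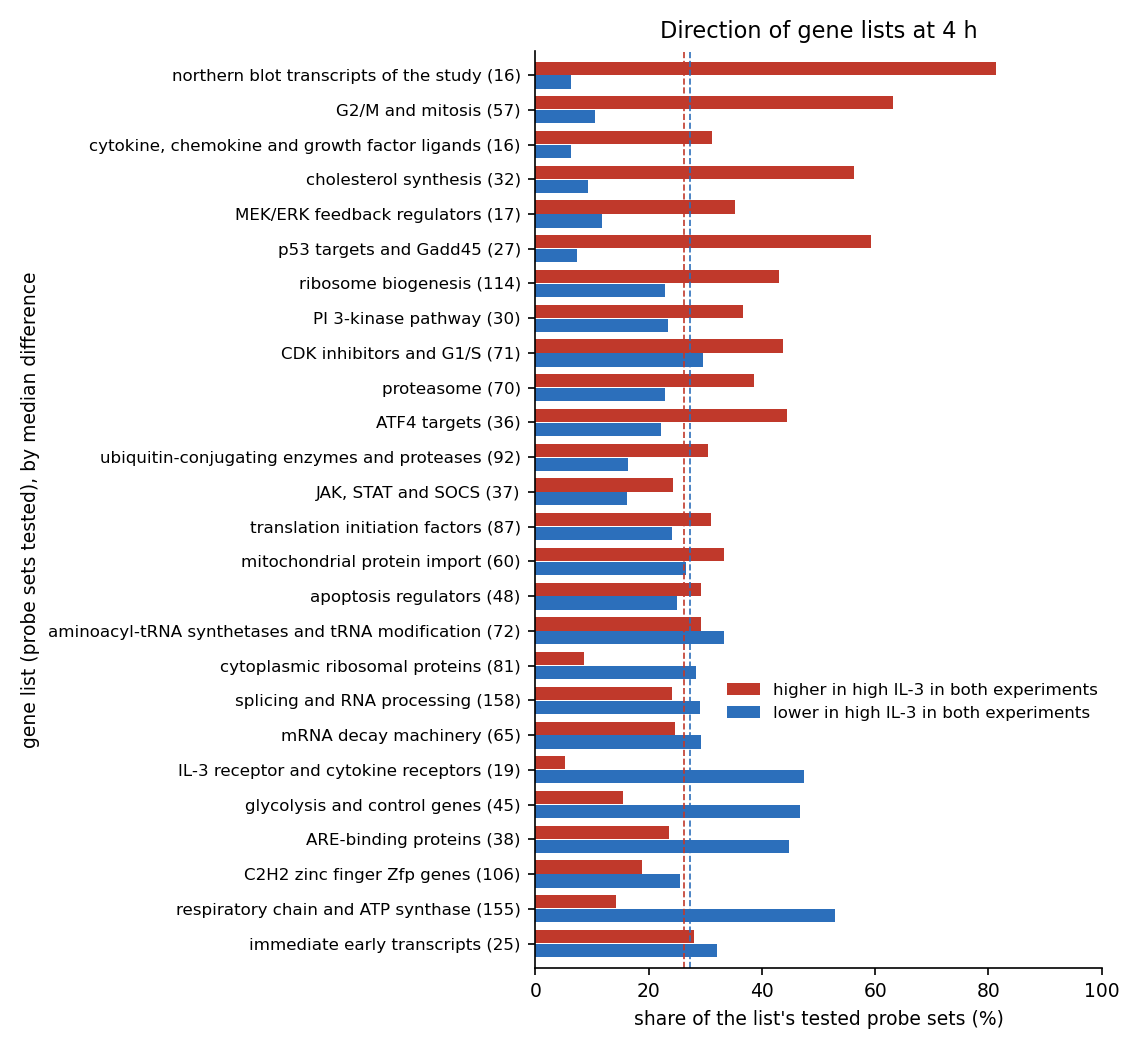
Share of the tested probe sets of each gene list that was higher (red) or lower (blue) in high IL-3 at 4 h in both experiments, with the lists ordered by their median difference and the number of probe sets in brackets. The dashed lines mark the shares over all probe sets tested, 26.2% higher and 27.3% lower. Northern blot transcripts (81.2%), G2/M (63.2%), p53 target (59.3%) and cholesterol synthesis genes (56.2%) reach farthest to the right in red, and the respiratory chain (52.9%) in blue.

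Over all 26 gene lists other than markers, 15 held a call and 11 held none. With 0.388% of all probe sets tested passing as higher and 0.0169% as lower, a single call, or none, says little about a list. Only the Northern blot and ligand lists, which share Il6, held more than 2. Of the 48 called probe sets, 18 belonged to at least 1 of the lists and 30 to none. Besides the lists above, none of 106 probe sets of C2H2 zinc finger Zfp genes passed (1 higher and 4 lower at an unadjusted p under 0.05), Zfp101 having the smallest p at -0.47 (adjusted p = 0.413), and none of 92 of ubiquitin-conjugating enzymes and proteases (1 and 2). Of the called genes, 23 had more than 1 tested probe set. In 3 of them (Hbegf, Cct6a and Snrnp27) all passed, and in 19 all, the called one included, lay on the side of the call. Probe sets of 1 gene share its RNA and the same arrays, so these counts are no independent check. The like share over all genes tested was not taken. The other probe sets of Eif4a1, Fam3c, Xiap and Thrap3 showed differences within 0.1 of 0.

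The 2 h difference and the 4 h difference were taken between separate arrays of the same 2 cultures. Their tests were not separate, since both came from the single fit and used the same spread for each probe set. The 2 h arrays thus helped to decide which probe sets passed at 4 h. Of the 46 probe sets higher at 4 h, 43 had a positive mean difference at 2 h and 39 were higher in both experiments at 2 h, against 25.2% of all probe sets tested. The median 2 h difference of the 46 was 0.29, with a range of -0.61 to 1.50, against a median of 0.0005 over all probe sets tested. At 2 h 24 of the 46 had an unadjusted p under 0.05 in the limma fit, against 868 of all 11856 tested. The spread that helped to pick the 46 also enters these p-values, so this count is not independent of the selection. In the whole comparison at 2 h, 7 probe sets (0.059%) passed, all higher in high IL-3, and 5 of them also passed at 4 h: both of Hbegf and those of Il6, Pik3cd and Xiap. The other 2 were 4921524J17Rik, with 1.16 at 2 h and 0.89 at 4 h (adjusted p = 0.0677), and Zfp36l2, with 1.29 at 2 h and 0.35 at 4 h. The change of the difference from 2 h to 4 h was tested as an interaction in limma. No probe set passed, 684 had an unadjusted p under 0.05, and the smallest adjusted p was 0.0508, that of Osbpl2, which differed by -0.61 at 2 h and 0.80 at 4 h.

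The 46 varied in how large their difference already was at 2 h, though for none did the change from 2 h to 4 h pass. Their selection at 4 h by itself favours a difference larger at 4 h than at 2 h. In 16 probe sets of 14 genes, among them those of Hbegf, Il6, Il4, Gch1, Pik3cd, Xiap, Yrdc, Zfp36l1 and Cdkn1a, the 2 h difference was already at least 0.6. These had a median of 39.8% of the 0 h signal left at 2 h in low IL-3 and 21.6% at 4 h, against 74.0% and 49.5% in high IL-3. In 17 probe sets of 15 genes, among them those of Snrnp27, Cd48, Cct6a, Vdac2, Tmem33, Chic2, Psmd12, Cdc20, Pbk and Egln3, the 2 h difference was below 0.15, and 82.4% was left in low IL-3 at 2 h and 53.3% at 4 h, against 85.7% and 74.2% in high IL-3. The median 4 h difference was 1.04 in the first group and 0.48 in the second. The 13 between them, with Timm17a, Rpf2, Atf4, Eif4a1 and Cklf, had a median of 0.75. The limits of 0.6 and 0.15 were set with the values known, the groups differ in brightness (median of mean intensities 309.7 and 1825), and no test of the grouping was made. Snrnp27 1415714_a_at differed by 0.00 at 2 h, with -0.06 and 0.06 in experiments 1 and 2, and by 0.65 at 4 h, but its interaction did not pass (adjusted p = 0.326). The other probe set of the gene, with 0.19 at 2 h and 0.53 at 4 h, fell in the middle group. Il6 was in the first group, with 1.50 at 2 h and 1.39 at 4 h. Tmem33, Atg4d and Osbpl2 were lower in high IL-3 at 2 h in both experiments and higher at 4 h in both, at -0.13, -0.12 and -0.61 at 2 h (adjusted p = 0.792, 0.935 and 0.226), and for none of the 3 did the interaction pass (adjusted p = 0.326, 0.677 and 0.0508).

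**Figure D4:**
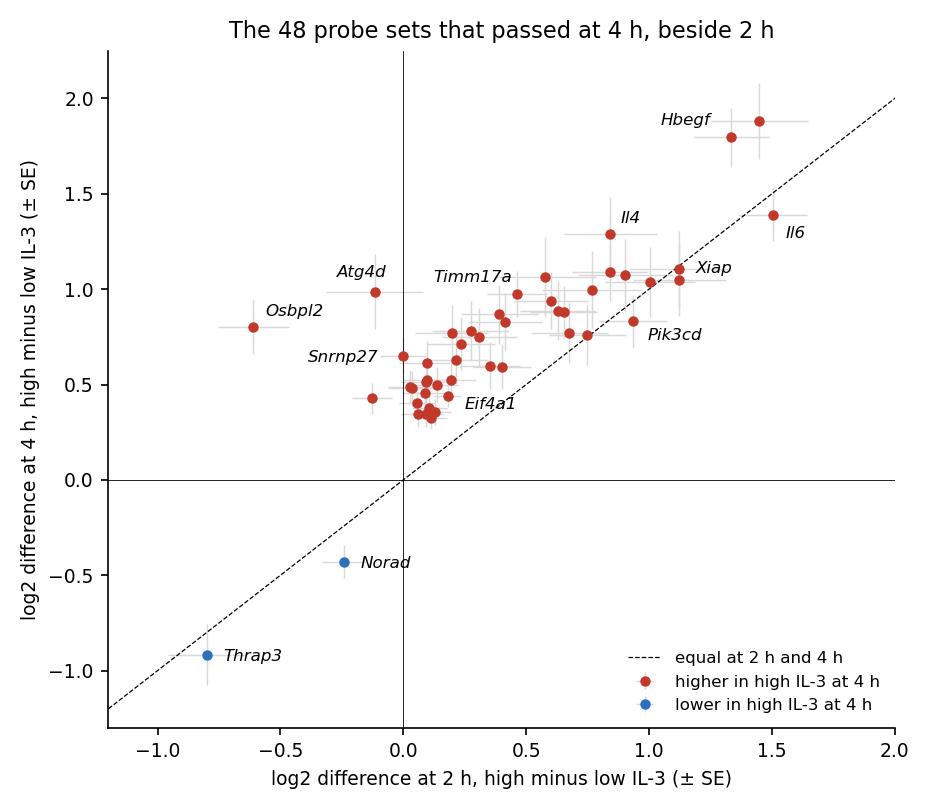
Log2 difference between high and low IL-3 at 2 h (horizontal axis) and 4 h (vertical axis) of the 48 probe sets that passed at 4 h, with the SE of the fit as bars. Red points were higher and blue points lower at 4 h, and the dashed line marks equal differences. Most red points lie above the line, Il6 (1.50 and 1.39) and Pik3cd (0.94 and 0.83) are among the few below it, and Osbpl2 (-0.61 and 0.80) lies apart on the left. The points were picked by their 4 h difference, which by itself favours a place above the line. No probe set passed the test of a change from 2 h to 4 h.

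The direction at 4 h varied with how far a transcript had already fallen in low IL-3 at 2 h. Classes were formed from the 0 h and 2 h low IL-3 arrays only. These arrays do not enter the 4 h difference, but they do enter the spread used in its test. Of all probe sets tested, 0.388% passed as higher, and 26.2% were higher and 27.3% lower in both experiments. Of 842 probe sets with 25 to 50% of the 0 h signal left, 13 (1.54%) passed as higher and 0 as lower. In both experiments 33.7% of these were higher and 19.4% lower. Of 1684 with 50 to 75% left, 12 (0.713%) passed as higher, and 42.8% were higher in both experiments against 16.9% lower. Of 4012 with 75 to 100% left, 18 (0.449%) passed as higher and 1, Norad, as lower. There 33.4% were higher and 19.8% lower in both experiments. Of 5042 with more than 100% left, 0 passed as higher and 1, Thrap3, as lower, and the shares turned round, with 13.7% higher and 38.1% lower in both experiments. Among 276 probe sets with under 25% left, 3 (1.09%) passed as higher, and the shares were equal at 26.1%. The medians of the 4 h difference were -0.04, 0.04, 0.08, 0.03 and -0.05 from the class most depleted to the least, and they kept their signs under each scaling and pseudocount tried. Between experiments 1 and 2 the sign turned in 3 of the 5 classes. The medians there were 0.13 and -0.16 under 25%, 0.15 and -0.07 from 25 to 50%, and 0.07 and -0.02 from 75 to 100%. The sign held from 50 to 75% (0.16 and 0.0046) and above 100% (-0.01 and -0.09). The medians over all probe sets tested also turned, at 0.045 and -0.053. The median of the mean intensities was 149.0 in the most depleted class and 584 in the class of 75 to 100%, so brightness also varies across classes.

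**Figure D5:**
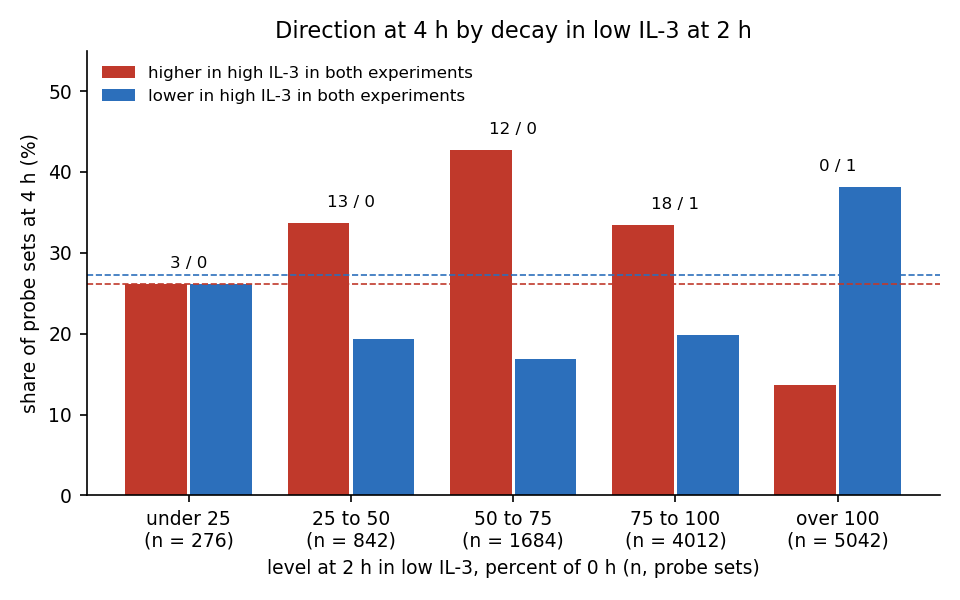
Share of probe sets higher (red) or lower (blue) in high IL-3 at 4 h in both experiments, by the percent of the 0 h signal left at 2 h in low IL-3. Dashed lines are the shares over all probe sets tested, and the numbers above the bars count the probe sets that passed as higher and as lower. Red exceeds blue from 25 to 100% and peaks at 42.8% in the class of 50 to 75%, and blue exceeds red above 100% (38.1% and 13.7%).

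Relative to 0 h, the 46 had more signal left in high than in low IL-3. Both shares of an experiment are taken over the same 0 h array, so this order restates the difference by which the 46 were picked. Il4 was above its 0 h level in high IL-3 in both experiments, and Cklf 1424495_a_at was close to it, at 98.2% and 99.3%. The median share left at 4 h was 66.2% in high and 37.2% in low IL-3. In low IL-3 all 46 were below their 0 h level in both experiments, with means from 6.34% to 65.3%. Eif4a1 kept 78.6% ± 1.99 of its 0 h signal with high IL-3 against 58.0% ± 0.418 with low IL-3, Cd48 74.2% ± 1.49 and 56.1% ± 2.18, and Eef1e1 40.7% ± 4.96 and 20.9% ± 4.33 (SD, n = 2). The 46 were also brighter than the rest, with a median of mean intensities of 800.2 against 353 over all probe sets tested. The deposited normalization sets the arrays on a common scale, so that shares of 0 h are relative to the transcripts that remain.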

How the data were processed

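The authors normalized all 10 arrays together with dChip at its default settings, and the deposited table holds the resulting intensity of each probe set per array on a linear scale. The dChip version was not given in the sources used here. Titles gave each array's group and experiment, and probe sets were named from the platform annotation (20393 of 22690 name 1 gene, 691 several and 1606 none), with 20364 symbols updated through the gene ID. Probe sets whose intensity averaged 50 or more over the 10 arrays were tested on log2(intensity + 16) with limma 3.58.1 in R 4.3.3. A single fit held 5 groups and the experiment as a block, with moderation along the trend of variance on signal, and Benjamini-Hochberg adjustment at 0.05 ran over 11856 probe sets. The 5 arrays of each experiment share 1 split culture, and their deviations from the group means correlated at 0.762 to 0.887 in all 10 pairs of groups. With 2 arrays a group, the number of arrays limits the precision, since depth has no meaning here.

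Differences are high minus low IL-3. Each log2 value understates the change of a dim probe set. Shares of 0 h are means of the 2 within-experiment ratios of intensities. The text names up to 12 probe sets per direction with the largest difference among those that passed, or the 5 with the smallest p where fewer than 5 passed, together with the transcripts blotted in the study, Hbegf, Gapdh, the IL-3 receptor chains and, from each of the 31 gene lists, up to 4 with the smallest p in a direction. Other called genes were named after their values were seen. The comparison, the lists and this rule were chosen with earlier results of these data known. Alternatives covered pseudocounts of 1 and 64, filters, scalings, variance models and subsets of arrays. Python 3.11.15 with pandas 2.3.3, numpy 2.4.6 and matplotlib 3.10.9 made the summaries.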

Additional observations from a re-analysis of the deposited data

How the results depend on the processing

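Across 17 alternative settings the number of probe sets higher at 4 h ran from 0 to 149. With a pseudocount of 64 it was 16 and with no intensity filter 7. It was 20 with arrays scaled to a common 75th percentile, 28 after quantile normalization, 0 with no replicate block, 3 without the variance trend and 149 when only the 4 arrays at 4 h were fitted with the replicate block. Leaving out 1 of the 4 arrays gave 3 to 14. Scaling to the ribosomal protein probe sets, chosen after seeing the data, gave 64. The 2 lower calls became 1 with a pseudocount of 64, scaling to Gapdh or quantile normalization, 0 with no filter, the 75th percentile, no replicate block or no variance trend, 4 with robust moderation, 34 with only the 4 arrays, and 0 to 1 with an array left out. The 7 calls at 2 h became 2 with no filter, the 75th percentile or quantile normalization, 18 with Gapdh, 0 with no replicate block, 1 with no variance trend, 15 with robust moderation, 19 without the 0 h arrays and 2 to 10 with an array left out. For the change from 2 h to 4 h, 0 became 1 with a filter of 200, with robust moderation or without the 0 h arrays, 2 with Gapdh and 0 to 4 with an array left out. The causes were not tested. Hbegf 1418350_at and Il6 1450297_at passed in 17 of the 18 fits, and lost their calls with no replicate block (adjusted p = 0.336 and 1.0). Over the named probe sets 613 alternative values kept their side of the threshold, 386 lost it, 7 gained it and 4 turned their sign. The last were of probe sets that had not passed: with an array left out at a time, Cited2 1452207_at ranged from -0.021 to 0.50 (negative without low IL-3 of experiment 1), Myb 1450194_a_at from -0.14 to 0.49 (negative without high IL-3 of experiment 2) and Myb 1422734_a_at from -0.13 to 0.061 (0.04 without high IL-3 of experiment 1, 0.061 without low IL-3 of experiment 2). Dim probe sets lie near the added 16, and 2 experiments limit what can be called.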
